A study of Mus musculus with 5 samples.

Results

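Wnt feedback target genes are genes that beta-catenin switches on and whose products in many cases act back on the Wnt pathway. The group described here holds 10 of them, Axin2, Lgr5, Nkd1, Notum, Rnf43, Znrf3, Sp5, Dkk1, Myc and Tnfrsf19. They are measured by all probe sets whose only gene symbol in the platform annotation is one of these genes, which gave 19 probe sets of 45037 on the array, and 10 genes of 18193. Expression was measured on Affymetrix mouse arrays in tumour cells from the prostates of 5 C57BL/6 mice, isolated from dissociated tumours with beads that the study calls Epicam beads. In the 3 nDKO mice, aged 15.86, 10.71 and 10.71 weeks, Probasin-driven deletion acts in the prostate epithelium on floxed alleles that include Smad4. The 2 nTKO mice, aged 31.43 and 16 weeks, carry the same floxed alleles and floxed Pygo2. Both genotypes are thus tumour models, no wild-type prostate was compared, and age differs between them. Each array comes from 1 animal, and nTKO 2 is close in age to nDKO 1.

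In the canonical pathway, a Wnt protein binds a Frizzled receptor and an Lrp co-receptor, and this halts the complex of Axin, Apc and Gsk3 that marks beta-catenin for destruction. Beta-catenin then enters the nucleus, binds Tcf and Lef proteins on DNA and recruits the co-activators Bcl9 and Pygo2. In mouse prostate epithelium, forced activation of beta-catenin is known to cause hyperplasia with squamous change. Because Pygo2 is part of this nuclear complex, levels of the feedback targets serve as a readout of beta-catenin output with and without it.

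The deleted gene followed the labels. Pygo2 had a log2 signal of 8.65, 8.62 and 8.72 in nDKO 1, 2 and 3, and of 7.30 and 6.35 in nTKO 1 and 2, so both nTKO mice lay below every nDKO mouse (log2 fold change -1.84, SE 0.31). Smad4, floxed in both genotypes, read 9.63, 9.88 and 9.88 in the nDKO mice and 9.76 and 10.37 in the nTKO mice, and where its probes lie relative to the deleted part is not given in the sources used here, so it checks nothing. The labelled epithelial origin was borne out by Epcam, at 12.94 to 13.48 on the 5 arrays, and by the keratin Krt8, at 12.96 to 13.55. Other cell types left signal too. All 8 macrophage markers exceeded the level of olfactory receptor probe sets (their 95th percentile, used below as background) on every array, with Lyz2 at 9.13 to 11.17 and Csf1r at 8.24 to 9.96. Of the fibroblast genes, 3 of 9 did, with Dcn at 6.41 to 9.52 but Col1a1 at 4.52 to 4.65. Of 5 smooth muscle genes, 4 exceeded background on nDKO 1 and 3 did on each other array. The smooth muscle actin Acta2 read 7.34 to 8.09, but 2.89 to 3.79 by its other probe sets, and Cnn1 read 3.13 to 3.18. The endothelial marker Pecam1 measured 2.95 to 3.71. Genes typical of seminal vesicle cells were bright, with Svs4 at 12.47 to 13.86, Svs5 at 11.13 to 14.08 and Svs2 at 8.86 to 13.61. Of 7 such genes, 6 exceeded background on nDKO 1 and 7 did on each other array. Their mean level was 8.56 to 13.01 in the nDKO mice and 10.37 to 11.89 in the nTKO mice. The part of these cells in the results was not tested. For Pbsn, the gene whose promoter names the driver, the signal was 3.91, 3.33 and 5.43 in the nDKO mice and 3.81 and 8.15 in the nTKO mice. The arrays nDKO 1 and nTKO 1, which are the oldest mice of their genotypes, stood apart from the other 3, with Krt10, a keratin of squamous epithelium, at 13.03 and 13.04 against 6.71 to 6.93. Pearson correlations over probe sets were 0.987 to 0.991 for pairs that include either of them and 0.995 to 0.996 among the others.

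None of the 10 Wnt feedback targets passed the test of a difference between nTKO and nDKO cells, and the measured difference was small for most. With limma, 0 of 19 probe sets had an adjusted p under 0.05, where the share over all 45037 probe sets was 0.0%. By its brightest probe set, each gene had nTKO values that overlapped the nDKO values. Group means of 8 of the 10 genes lay within 0.1 log2 units of each other, and only Sp5 and Myc were further apart. In sign, 9 genes were higher and Tnfrsf19 was lower, where 61.0% of all genes were higher, though Nkd1 and Dkk1 turned lower with median centring and these and Lgr5 with quantile normalization. The 10 genes had a median log2 fold change of 0.015 against 0.028 over all genes, and a median size of 0.018 against 0.087. The 95% interval of the fit lay within a 2-fold change in either direction for 9 genes, all but Myc, and within 1.5-fold for 8, all but Myc and Sp5. Both counts, like that of group means within 0.1, include Lgr5 and Dkk1, whose probe sets were above background on no array. The 9 also include Sp5, above background only on nTKO 2. For such probe sets the interval describes the signal and does not bound the change of the gene. For comparison, the deletion left Pygo2 at 28.0% of its nDKO signal. Pygo2 did not pass the test either (limma adjusted p = 0.799), and 0.799 was the smallest adjusted p of all probe sets. Not passing therefore does not show that a target is unaltered. Over single probe sets, 1 of 19 had an unadjusted p under 0.05, where the share over all probe sets was 3.8%. Both nTKO mice were below all nDKO mice in 2 of the 19 (5.17% of all probe sets) and above them in 0 (7.02% of all probe sets). An exact two-sided permutation test of the brightest probe sets gave p of 0.5 to 1, and with 10 splits of 3 against 2 mice it cannot go below 0.1.

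**Figure D1:**
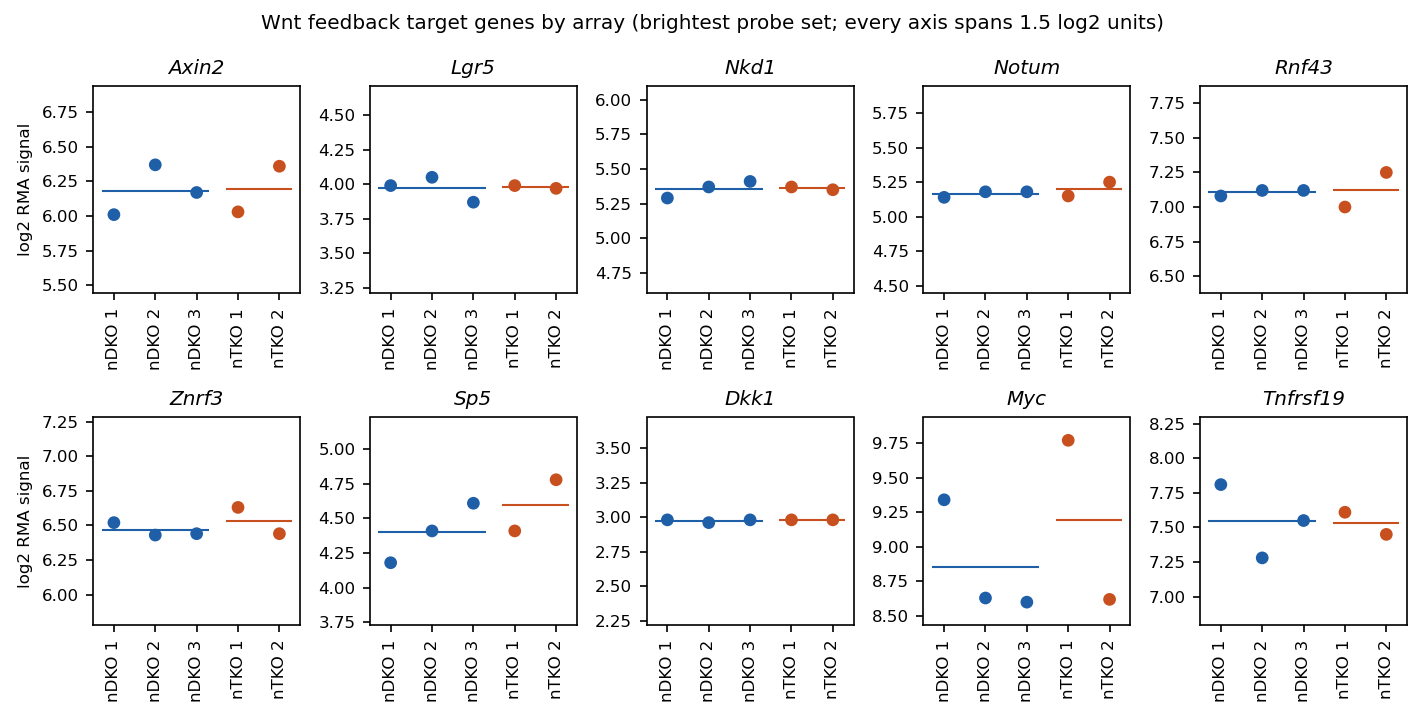
Log2 RMA signal of the brightest probe set of each of the 10 genes on the 5 arrays (blue, nDKO; orange, nTKO; line, group mean; each axis spans 1.5 log2 units, and levels of different genes are not comparable). The values of the groups overlap for each gene, and Myc has the widest range, from 8.60 to 9.77.

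Brightness sets what these probe sets can show. Olfactory receptor genes, which the tissue is not expected to use, had 44 probe sets, with a 95th percentile between 4.55 and 4.83 on the 5 arrays. Of the member probe sets, 8 were above that level on all 5 arrays, from Axin2, Nkd1, Notum, Rnf43, Znrf3, Myc and Tnfrsf19 (with 2 of them). For Lgr5 and Dkk1 no probe set was above it on any array, and for Sp5 only that of nTKO 2 was. A dim probe set may not respond to its transcript, so its flat values do not show that a gene is silent or unaltered. In cells pooled from a tumour, fewer cells of a type and less RNA per cell cannot be told apart.

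Axin2 and Nkd1 act inside the cell. Axin2 is a scaffold of the destruction complex and a widely used reporter of beta-catenin output. Its brighter probe set, 1436845_at, measured 6.01, 6.37 and 6.17 in the nDKO mice and 6.03 and 6.36 in the nTKO mice. The nTKO values sat at both ends of the nDKO range, and the means were 6.18 (SD 0.18, n = 3) and 6.20 (SD 0.23, n = 2). The log2 fold change was 0.012 (SE 0.16), with an interval of -0.42 to 0.45 (limma adjusted p = 0.9996). The interval is 0.745 to 1.36 times the nDKO level. This fold change was -0.15 to 0.18 with 1 mouse left out. Adding log2 age to the model gave 0.34 (limma unadjusted p = 0.0766, adjusted p = 0.594), and nTKO 2 minus nDKO 1 was 0.35. The dimmer 1421341_at read 3.13, 3.24 and 3.18 in the nDKO mice and 3.24 and 3.31 in the nTKO mice, where 1 nTKO value equals the highest nDKO value. Nkd1 binds Dishevelled and restrains the signal. Its brightest probe set, 1429507_at, read 5.29, 5.37 and 5.41 in the nDKO mice and 5.37 and 5.35 in the nTKO mice, a difference of 0.0033 (SE 0.055). The 3 others disagreed in sign, with log2 fold changes of -0.075, 0.15 and -0.12. The last, 1417278_a_at, is the member probe set with the smallest p. It read 3.09, 3.12 and 3.09 in the nDKO mice and 3.03 and 2.93 in the nTKO mice, so the groups did not overlap, at a level below that of olfactory receptor probe sets (SE 0.041, limma unadjusted p = 0.0397, adjusted p = 0.799).

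Rnf43 and Znrf3 are membrane ubiquitin ligases that remove Frizzled receptors from the cell surface, and Lgr5 is a receptor for R-spondins, which counter them. Rnf43 measured 7.08, 7.12 and 7.12 in the nDKO mice and 7.0 and 7.25 in the nTKO mice, so that the nTKO mice enclosed the nDKO mice. Its log2 fold change was 0.018 (SE 0.092, interval -0.23 to 0.27). Znrf3 measured 6.52, 6.43 and 6.44 in the nDKO mice and 6.63 and 6.44 in the nTKO mice by 1435608_at, where nTKO 1 alone was above the nDKO mice. The difference was 0.072 (SE 0.08), and 0.038 by the dim 1437646_at, on which 3 of the 5 arrays shared a value of 3.69. Both probe sets of Lgr5 were dim. The brighter, 1444519_at, read 3.99, 4.05 and 3.87 in the nDKO mice and 3.99 and 3.97 in the nTKO mice, with the nTKO values inside the nDKO range, and 1450988_at differed by 0.18 (SE 0.15), with nTKO 1 highest at 3.90. Tnfrsf19, also called Troy, is a receptor of the TNF receptor family that marks Wnt-driven stem cells in the intestine. By 1448147_at it read 7.81, 7.28 and 7.55 in the nDKO mice and 7.61 and 7.45 in the nTKO mice, again inside the nDKO range (log2 fold change -0.017, SE 0.18). Of its other probe sets, 1415921_a_at differed by 0.012, and 1425212_a_at read 4.25, 4.44 and 4.38 in the nDKO mice and 4.23 and 4.16 in the nTKO mice. Both nTKO mice were below all nDKO mice on the latter (log2 fold change -0.16, SE 0.073, limma unadjusted p = 0.0868, adjusted p = 0.799).

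Notum and Dkk1 are secreted inhibitors, Notum an enzyme that strips Wnt proteins of their lipid and Dkk1 a ligand that blocks the Lrp co-receptors. Notum read 5.14, 5.18 and 5.18 in the nDKO mice and 5.15 and 5.25 in the nTKO mice, with nTKO 2 highest. The log2 fold change was 0.033 (SE 0.051, interval -0.11 to 0.17). On each probe set of Dkk1, 4 of 5 arrays shared a value. The brighter read 2.98 on every array but nDKO 2, at 2.96, and the other 2.41 on every array but nTKO 1, at 2.56. Such ties make the spread of a probe set small, so these values bear little on Dkk1.

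**Figure D2:**
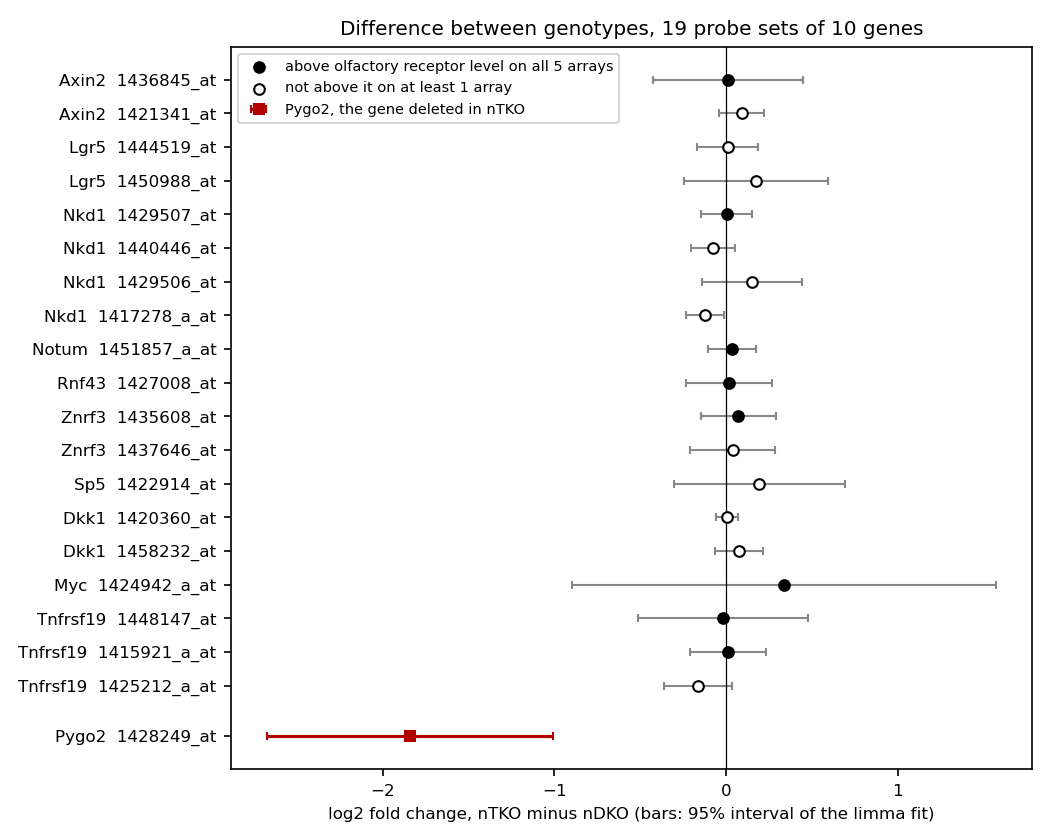
Log2 fold change (nTKO minus nDKO) of the 19 probe sets with the 95% interval of the limma fit, with Pygo2 below. Filled points were above the olfactory receptor level on all 5 arrays. The intervals of 18 of 19 probe sets include 0, the exception being Nkd1 1417278_a_at, and that of Pygo2 runs from -2.67 to -1.01.

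Sp5 and Myc encode transcription factors, Sp5 a zinc finger protein that damps Wnt target genes and Myc a driver of growth and ribosome production. They had the largest differences of the 10 genes, and neither passed. Sp5 read 4.18, 4.41 and 4.61 in the nDKO mice and 4.41 and 4.78 in the nTKO mice, with a mean difference of 0.20 on the log2 scale (SE 0.18, interval -0.30 to 0.69, limma adjusted p = 0.815). The lower nTKO value equals the middle nDKO value, and leaving out nTKO 2 brought it to 0.01. Adding log2 age to the model brought it to 0.58 (limma unadjusted p = 0.0212, adjusted p = 0.454).

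Myc read 9.34, 8.63 and 8.60 in the nDKO mice and 9.77 and 8.62 in the nTKO mice. The oldest mouse of each genotype was high and the other 3 mice, of both genotypes, lay between 8.60 and 8.63. Among these 3 was nTKO 2, at 16 weeks about as old as nDKO 1 at 15.86 weeks. The excess over the highest of those 3 was 1.64-fold in nDKO 1 and 2.20-fold in nTKO 1. The range of Myc over the arrays, 1.17 log2 units, was wider than that of 95.9% of all probe sets. The log2 fold change between genotypes was 0.34 (SE 0.45, interval -0.89 to 1.57, limma adjusted p = 0.855). This value depended on which mice were compared. It was 0.91 without nTKO 2, -0.24 without nTKO 1 and 0.005 without both oldest mice. With log2 age as a covariate it was -0.72 (limma unadjusted p = 0.00159, adjusted p = 0.381). Between the mice closest in age (nTKO 2 minus nDKO 1) it was also -0.72, but the age fit uses these arrays too, so the values are not independent. For Krt10, at 13.03 in nDKO 1 and 6.90 in nTKO 2, they were -5.72 and -6.13. In all values given with log2 age, age and squamous state cannot be told apart.

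**Figure D3:**
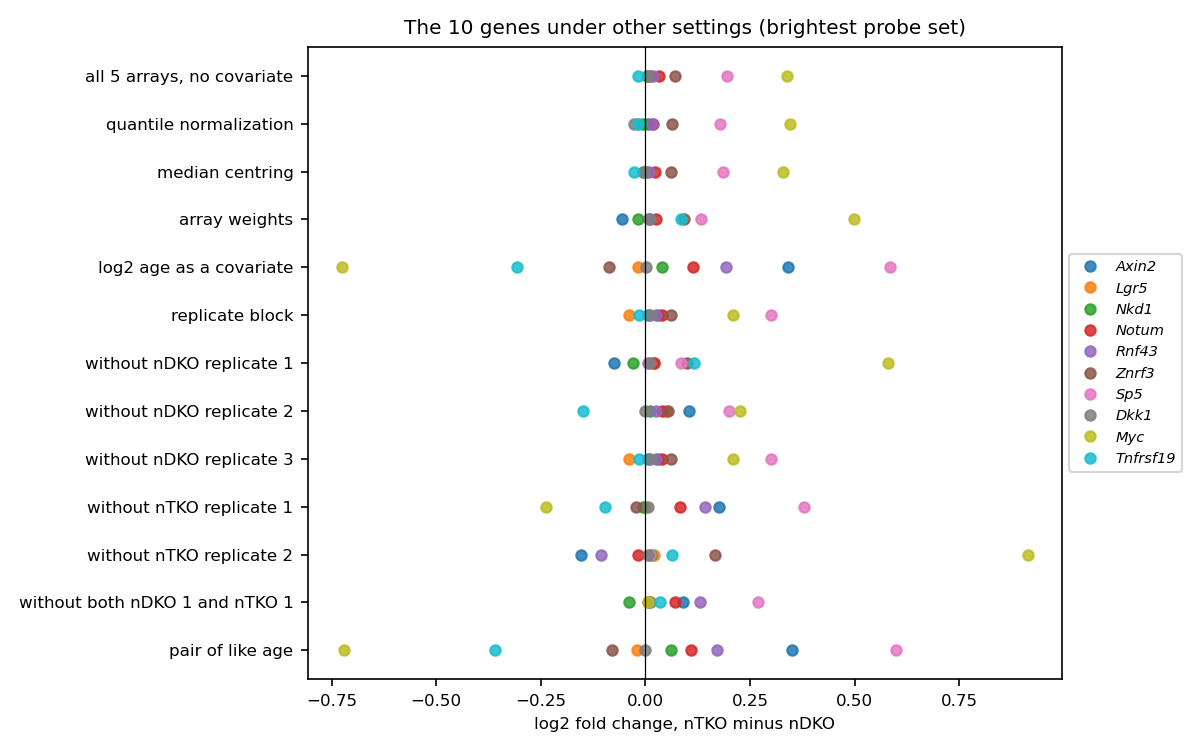
Log2 fold change (nTKO minus nDKO) of the brightest probe set of each of the 10 genes with all arrays and under other settings; a point is missing where a filter removed the probe set. Myc runs from -0.72 to 0.91, while Nkd1 stays between -0.04 and 0.06.

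The 2 arrays with high Myc also had high squamous markers. Of 14 squamous genes, 13 were measured, and in 12 of them nDKO 1 and nTKO 1 were above the other 3 arrays, as in 14.6% of all genes. The mean level of the list was 7.24 to 10.10 in nDKO and 6.59 to 9.53 in nTKO cells, and 12 to 13 of the 13 genes in nDKO mice and 11 to 13 in nTKO cells exceeded the olfactory receptor level. In 4 of 10 basal epithelial genes these arrays were also above the others, and the list's median was 9.25 on nDKO 1, 9.14 on nTKO 1 and 8.27 to 8.53 elsewhere. In 7 of 10 luminal genes the same 2 arrays were below the others, as in 9.91% of all genes. Neutrophil markers had a median of 7.30 in nTKO 1, against 6.02 to 6.74 on the other arrays. The part of squamous cells or neutrophils in the Myc values was not tested.

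The feedback targets were divided over the pattern of Myc. By brightest probe set, Myc, Znrf3 and Tnfrsf19 were higher in nDKO 1 and nTKO 1 than on the other 3 arrays. This is 3 of 10 genes against 14.6% of all genes, but it counts Myc, whose own pattern was looked for. Axin2, Rnf43 and Notum were lower in nDKO 1 and nTKO 1 than on the other 3, again 3 of 10, against 9.91% of all genes. Some margins were small. Notum read 5.15 in nTKO 1 and 5.18 in nDKO 2, and Tnfrsf19 read 7.61 in nTKO 1 and 7.55 in nDKO 3. On their other probe sets, Axin2, Znrf3 and Tnfrsf19 showed neither order. The other 4 genes were neither, and the median deviation of the 10 genes from their own means was between -0.015 and 0.008 on the 5 arrays.

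Genes that Myc is known to activate shared its array pattern more often than genes in general, but a link to Myc was not tested. In 11 of 18 of them, nDKO 1 and nTKO 1 were above the other 3 arrays, and in 0 below. Over all genes the shares were 14.6% above and 9.91% below. The median deviation from a gene's own mean was 0.24 in nDKO 1 and 0.11 in nTKO 1, and -0.13, -0.083 and -0.052 in nDKO 2, nDKO 3 and nTKO 2. Between the genotypes, 13 were higher and 5 lower, where 61.0% of all genes were higher. The list's median difference was 0.063 and ranged from -0.047 to 0.15 with 1 mouse left out and was -0.18 with log2 age as a covariate. An unadjusted p under 0.05 was found for 2 of the 18, where the share over all genes was 3.74%. These were the transferrin receptor Tfrc (0.16, SE 0.056, and 0.25 and -0.08 by its other probe sets) and the lactate dehydrogenase Ldha (0.12, SE 0.045). Both were higher by brightest probe set, and 0 passed after adjustment. The largest difference of the list went the other way. The translation factor Eif4a1 read 12.53, 12.40 and 12.33 in the nDKO mice and 11.57 and 12.21 in the nTKO mice (-0.53, SE 0.22, limma unadjusted p = 0.0678), and -0.84 and 0.025 by its other probe sets. It was -0.21 without nTKO 1 and -0.85 without nTKO 2.

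**Figure D4:**
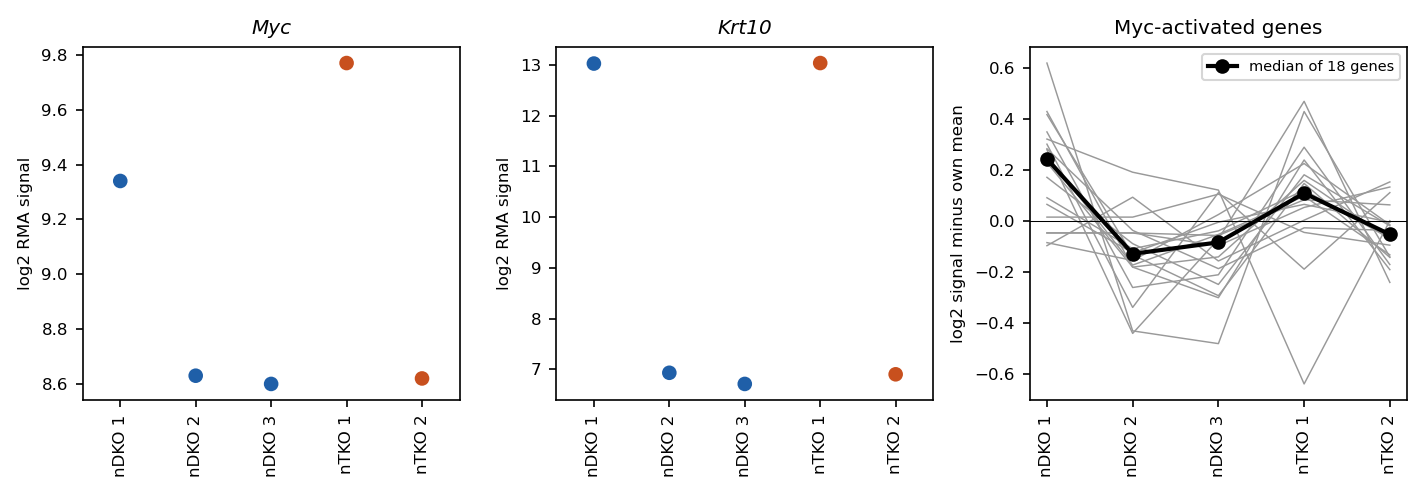
Log2 signal of Myc (left) and of the squamous keratin Krt10 (middle) on the 5 arrays (blue, nDKO; orange, nTKO), and signal of 18 Myc-activated genes minus each gene's own mean (right; grey, genes; black, median). Myc and Krt10 are highest in nDKO 1 and nTKO 1, where the median of the Myc-activated genes is 0.24 and 0.11.

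Promoter sequence from RefSeq was matched for 6 of the 10 genes, Axin2, Nkd1, Rnf43, Sp5, Dkk1 and Tnfrsf19, with 8 windows in all. The letters CTTTGAT and CTTTGTT are each a form of the site that Tcf and Lef proteins bind. Only these 2 forms were searched, on both strands, in the 250 bases before and 50 after each start site. A match was found for Sp5, Dkk1 and 1 of the 2 windows of Tnfrsf19, so in 3 of 8 windows, against 9.33% of all 32851 promoters of this length. Sp5 held 2 matches, and 0.551% of all promoters held 2 or more. They are shown, with Axin2 as the reference target, because these letters are how the pathway reaches its targets. Each is 5′ to 3′ in the direction of the gene, up to the base before the start site, on GRCm38.p6, with matches in capitals. Sp5 lies at chr2:70474673-70474922 on the plus strand, with CTTTGAT starting 104 bases and AACAAAG, the other strand of CTTTGTT, 222 bases before the start. Dkk1 lies at chr19:30549497-30549746 on the minus strand, with CTTTGTT 98 bases before the start. Tnfrsf19 lies at chr14:61037988-61038237 on the minus strand, with ATCAAAG, the other strand of CTTTGAT, 202 bases before the start. Axin2 lies at chr11:108920099-108920348 on the plus strand and holds no match in this window, which says nothing of sites elsewhere in the gene.
Sp5: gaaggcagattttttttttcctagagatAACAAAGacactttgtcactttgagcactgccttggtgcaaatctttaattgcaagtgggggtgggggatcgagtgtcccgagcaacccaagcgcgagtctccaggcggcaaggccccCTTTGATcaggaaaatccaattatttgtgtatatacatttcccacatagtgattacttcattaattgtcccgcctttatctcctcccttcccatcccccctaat
Dkk1: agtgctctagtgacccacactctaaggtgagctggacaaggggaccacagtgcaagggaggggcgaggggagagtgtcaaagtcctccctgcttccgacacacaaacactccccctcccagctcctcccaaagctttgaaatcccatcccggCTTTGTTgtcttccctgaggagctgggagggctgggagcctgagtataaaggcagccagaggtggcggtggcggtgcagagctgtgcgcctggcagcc
Tnfrsf19: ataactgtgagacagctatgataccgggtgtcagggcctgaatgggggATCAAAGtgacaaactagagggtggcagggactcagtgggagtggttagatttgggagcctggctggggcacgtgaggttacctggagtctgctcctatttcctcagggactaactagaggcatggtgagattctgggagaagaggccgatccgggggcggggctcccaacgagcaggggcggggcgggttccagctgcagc
Axin2: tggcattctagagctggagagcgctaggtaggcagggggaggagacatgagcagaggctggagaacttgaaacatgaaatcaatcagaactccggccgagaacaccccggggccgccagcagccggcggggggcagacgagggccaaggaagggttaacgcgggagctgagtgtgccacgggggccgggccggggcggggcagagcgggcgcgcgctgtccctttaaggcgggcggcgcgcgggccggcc
The genes with a match did not stand together in expression. Sp5 differed by 0.20, the dim Dkk1 by 0.0067 and Tnfrsf19 by -0.017 between genotypes, and none passed.

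The rest of the Wnt pathway was measured in the same fit, by the brightest probe set of each gene. No gene of these lists passed after adjustment, and the counts at an unadjusted p under 0.05 stand against 3.74% of all genes. Counts of higher and lower genes stand against 61.0% of all genes higher and 39.0% lower. Among the ligands, 10 of 23 were higher and 13 lower (median -0.05), and 2 had an unadjusted p under 0.05. Wnt4 read 10.02, 10.42 and 10.26 in the nDKO mice and 9.77 and 9.77 in the nTKO mice (log2 fold change -0.46, SE 0.14, and -0.39 by its other probe set), and Wnt7b was at -0.29 (SE 0.087). For Wnt4 and Wnt7b both nTKO mice were below all nDKO mice, as in 3 of the 23 ligands and 4.71% of all genes. With log2 age in the model Wnt4 was -0.31 and Wnt7b -0.12, and Wnt7b was -0.19 without nTKO 1. Among receptors, 10 of 17 were higher and 7 lower (median 0.027), and both nTKO mice were above all nDKO mice in 3 of the 17, against 8.13% of all genes. The Frizzled receptor Fzd3 read 6.22, 6.46 and 6.77 in the nDKO mice and 7.24 and 7.35 in the nTKO mice (0.81, SE 0.18, limma unadjusted p = 0.0103, adjusted p = 0.799). Its 5 other probe sets gave -0.0067 to 0.36, so its size rests on 1 probe set.

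Secreted inhibitors other than the members had 9 of 12 higher and 3 lower (median 0.088), with 0 at an unadjusted p under 0.05. Of the cytoplasmic genes, 5 of 20 were higher and 15 lower (median -0.025). The signal transducer Dvl1, a Dishevelled, was at -0.26 (SE 0.077, limma unadjusted p = 0.0271) and -0.22 by its other probe set, with both nTKO mice lowest. It was -0.17 without nTKO 2 and -0.39 with log2 age. Beta-catenin itself, Ctnnb1, read 13.27, 13.48 and 13.37 in the nDKO mice and 13.30 and 13.38 in the nTKO mice, with the nTKO values inside the nDKO range. Of 20 genes of the nuclear complex, Pygo2 included, 9 were higher and 11 lower (median -0.032). An unadjusted p under 0.05 was found for 2, Pygo2 and Tcf7l1. Both nTKO mice were below all nDKO mice in 5 of the 20, Pygo2 among them, against 4.71% of all genes. They were above all nDKO mice in 1, against 8.13% of all genes. Tle2 was among those below, at -0.26 (SE 0.11, limma unadjusted p = 0.0687, adjusted p = 0.799). The co-activator Bcl9l was at -0.25 (SE 0.11), with both nTKO mice below the nDKO mice, but its other probe sets gave 0.16 and 0.055 and their mean -0.011. It was -0.16 without nTKO 1 and -0.031 with log2 age. Its relative Bcl9 was at 0.13 (SE 0.093), and -0.10 by its other probe set. Tcf7l1, a Tcf protein that mainly represses, was at 0.44 (SE 0.14), but -0.088 by its dimmer probe set and 0.22 with log2 age. Tcf7l2 was at 0.16 (SE 0.25), and Lef1, below the olfactory receptor level on all arrays, at 0.16 (SE 0.095).

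Of 35 other known Wnt targets, 16 were higher and 19 lower, with a median of -0.0017 and 2 at an unadjusted p under 0.05. These were the protease Mmp7 and the angiogenic factor Vegfa, which many pathways induce. Mmp7 read 13.07, 13.04 and 12.97 in the nDKO mice and 12.30 and 12.77 in the nTKO mice (-0.49, SE 0.16). Vegfa was at 0.23 (SE 0.079), but at 0.088 by its other probe set, on which the groups overlapped. The receptor Ephb3 was at -0.47 (SE 0.22), with both nTKO mice below all nDKO mice. These sizes depended on single mice and on age. Mmp7 was -0.26 without nTKO 1 and -0.73 without nTKO 2, and adding log2 age gave -0.23 (limma unadjusted p = 0.308). Vegfa was 0.14 without nTKO 1 and 0.083 with log2 age. Ephb3 was -0.28 without nDKO 1 and -0.77 with log2 age. Cyclin D1, Ccnd1, read 10.67, 10.93 and 10.68 in the nDKO mice and 10.80 and 10.39 in the nTKO mice (-0.17, SE 0.17), and the groups overlapped. For the adhesion receptor Cd44 the probe sets disagreed. The brightest read 11.90, 12.08 and 11.86 in the nDKO mice and 12.03 and 11.86 in the nTKO mice (-0.0017, SE 0.10), with overlap. On 2 others both nTKO mice were below all nDKO mice, with differences of -0.31 (SE 0.14, limma unadjusted p = 0.091) and -0.39 (SE 0.20), and the mean over its probe sets gave -0.19.

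**Figure D5:**
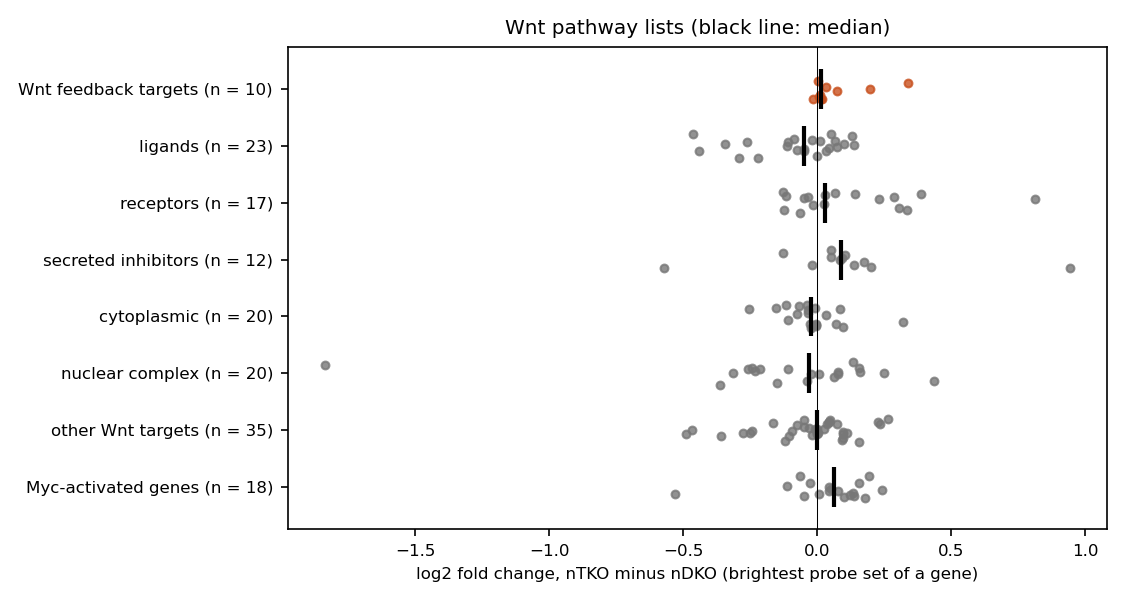
Log2 fold change (nTKO minus nDKO) of genes of 8 lists by their brightest probe set; each point is a gene and the black line is the median of a list. The feedback targets lie between -0.017 and 0.34, the medians of all lists lie between -0.05 and 0.088, and the point at -1.84 is Pygo2.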

How the data were processed

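Per the submitters' processing notes, the authors' deposited log2 values come from RMA in the Transcriptome Analysis Console, whose versions the sources do not give. RMA corrects background, equalises the distributions of the arrays and summarises probes, and it hides any shift common to most genes. Values have 2 decimals. The platform annotation gave 34945 probe sets 1 symbol, 932 several and 9160 none. A gene is shown by its probe set with the highest mean over 5 arrays. The genotypes were compared over all 45037 probe sets (limma 3.58.1, R 4.3.3; lmFit, eBayes with trend, no filter or covariate, two-sided, Benjamini-Hochberg over all probe sets, threshold 0.05, 3 residual degrees of freedom). The fit was also run on simulated data with added changes, but the share of them that it recovered is not given here. Beside the members, the rule names Pygo2, Smad4, Krt10, 8 fixed Wnt genes (Tcf7 had no single-symbol probe set and was not analysed here) and, per pathway list, up to 3 genes with the smallest p. Markers named as checks of cell type, and what nDKO 1 and nTKO 1 share, were chosen after values were seen. The members and gene lists were chosen with earlier results of these data known. The number of arrays limits the precision. Mice of like replicate number are different animals. Some items are not reported here.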

Additional observations from a re-analysis of the deposited data

How the results depend on the processing

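Of the 10 members, 0 had a limma adjusted p under 0.05 in any of 16 alternatives with a test (1 row per gene, a filter at the median level, quantile normalization, median centring, other variance models, array weights, log2 age, the replicate block, the mean of a gene's probe sets, each mouse left out, and both oldest mice left out), and over all probe sets 0 were called in the 15 of them run on all probe sets (not the mean of a gene's probe sets). The smallest adjusted p of a member was 0.0645, for the dim Dkk1 1458232_at without nTKO 2. Scaling moved the median of all probe sets by -0.014 (quantile) and -0.01 (median centring). By brightest probe set, 0 of the 10 members had an unadjusted p under 0.05 in the main fit, and 0 with any 1 nDKO mouse left out. Log2 age gave 2 (Sp5 and Myc) and the replicate block 1 (Sp5, 0.30, adjusted p = 0.751). The counts over all 45037 probe sets rose too, from 1710 to 4091 with log2 age and 2294 with the replicate block. Leaving out both oldest mice left 1 nTKO mouse, with Notum at 0.07 and Rnf43 at 0.13. The replicate block changed no call. Deviations from group means correlated at 0.38 (replicate 1) and 0.31 (replicate 2) over probe sets, but the numbers mark different animals and only 2 pairs exist.

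Signs near 0 turned: of 294 member values, 35 had the opposite sign, in 14 of 19 probe sets. Quantile normalization gave Lgr5 -0.017, Nkd1 -0.007, Dkk1 -0.028, Tnfrsf19 1415921_a_at -0.0063, Ctnnb1 0.0048 and Cd44 0.029. Median centring gave Nkd1 -0.0067 and Dkk1 -0.0033. Array weights gave Axin2 -0.056, Nkd1 -0.017 and Tnfrsf19 0.085. Log2 age gave Lgr5 -0.017, Znrf3 -0.087 and -0.039, Dkk1 1458232_at -0.018, Myc -0.72, Ctnnb1 0.091 and Krt10 -5.72. The replicate block gave Lgr5 -0.04 and Krt10 -0.01. The mean of probe sets gave Nkd1 -0.01. Without both oldest mice, values were Lgr5 1450988_at -0.085, Nkd1 -0.04 and -0.035, Znrf3 1437646_at -0.085, Tnfrsf19 0.035 and Tcf7l2 -0.065. With 1 mouse left out, ranges were Axin2 -0.15 to 0.18, Lgr5 -0.04 to 0.05, Nkd1 -0.03 to 0.03, Notum -0.017 to 0.083, Rnf43 -0.11 to 0.14, Znrf3 -0.023 to 0.17 and -0.057 to 0.13, Myc -0.24 to 0.91, Tnfrsf19 -0.15 to 0.12 and -0.083 to 0.11, Smad4 -0.037 to 0.57, Krt10 -1.99 to 4.15, Ctnnb1 -0.085 to 0.02, Tcf7l2 -0.06 to 0.30, Ccnd1 -0.37 to 0.04 and Cd44 -0.087 to 0.083. The causes were not tested. Dim probe sets and ties limit Dkk1, Lgr5 and Sp5.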
